A study of Rattus norvegicus with 10 samples.

Results

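Mid lactation whey was compared with whey from both ends of lactation on 9 of the 10 arrays of the series, which hold whey of d 2, d 9 and d 16 postpartum with 3 arrays a day. The 3 d 9 arrays were set against the mean of the d 2 and the d 16 arrays, and a transcript was called a d 9 peak or a d 9 trough only when its difference passed the test and all 3 d 9 values lay outside all 6 others. The milk came from the same 3 F344/N rats on each day. They were adult dams bought while pregnant. All were kept apart from their litters before milking, given oxytocin to release the milk and milked under light anaesthesia. The milk was centrifuged and filtered to remove fat, cells and casein, so the RNA is that of cell-free whey. The last array of the series holds serum RNA of d 21, mixed from 3 samples, and enters no test here. Each array received the same mass of RNA, so every value is a share of the RNA of its sample and not an amount per volume of milk.

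Milk is made by secretory epithelial cells that line the alveoli of the mammary gland. After birth the gland secretes colostrum, which is rich in immune proteins, and then mature milk with its full content of lactose, fat and casein, until the young begin to eat solid food. Rodents also secrete transferrin, the protein that carries iron, into milk. Most cellular proteins are encoded in the nucleus, but the mitochondrion keeps a small circular genome of its own that encodes subunits of the respiratory chain and of ATP synthase, the machines with which a cell burns fuel.

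The largest called differences on d 9 were falls. Tf, the transcript of transferrin, was 28.9-fold lower on d 9 than the mean of the other days. Of 35 tested probes of the mitochondrial genome 16 were called lower, where 0.712% of all tested probes were. Those 16 lay outside its early stretch, and none was called against d 16 alone. The 16 probes named for subunits of the respiratory chain and ATP synthase, 12 of them called, were 6.29-fold lower at the median. The peaks were smaller. They included Arhgap9, Ptges, which makes prostaglandin E2, and Chac1 and Atf4 of the amino acid and endoplasmic reticulum stress response. Chac1 and Atf4 were not called against d 16 alone and lost their calls when the fit paired the days by rat.

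The array measured each transcript with probes of 60 bases, and only the position of a probe, not its exon, is given with the array. The probes below carry the main result, and they are printed because they show which stretch of each transcript was read. They are given 5′ to 3′ in lower case as the array files hold them, on genome build rn4. The Tf probe lies on the minus strand at chr8:108219377-108219436, and the others on the plus strand of the mitochondrial genome at chrM:6402-6461, chrM:7585-7644, chrM:8715-8774, chrM:8305-8364 and chrM:14965-15024, in the order below. COX1, COX2 and COX3 are subunits of cytochrome c oxidase, ATP6 is subunit a of ATP synthase and CYTB is cytochrome b, named from the descriptions in the array files.
Tf: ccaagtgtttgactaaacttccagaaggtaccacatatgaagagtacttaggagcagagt
COX1: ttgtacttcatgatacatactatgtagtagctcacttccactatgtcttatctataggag
COX2: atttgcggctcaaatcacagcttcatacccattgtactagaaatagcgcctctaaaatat
COX3: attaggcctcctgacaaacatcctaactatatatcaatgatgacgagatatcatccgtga
ATP6: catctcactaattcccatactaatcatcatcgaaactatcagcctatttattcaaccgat
CYTB: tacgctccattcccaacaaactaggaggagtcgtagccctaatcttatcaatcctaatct

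Tf signal was high on d 2, low on d 9 and high again on d 16. On the log2 scale of normalized signal the d 2 values were 14.71, 14.46 and 13.69 in rats 1, 2 and 3. The d 9 values of the same rats were 9.91, 9.88 and 10.29. The d 16 values were 15.63, 15.14 and 15.66. Every rat fell by more than 3 and rose by more than 5 log2 units, and the days did not overlap. The contrast was -4.85 ± 0.25 (SE, n = 9 arrays, limma adjusted p = 0.00097), the smallest adjusted p of the comparison. It was also called against d 2 alone (-4.26, adjusted p = 0.00049) and against d 16 alone (-5.44, adjusted p = 0.0012). Tf kept its call with any 1 of the 9 arrays left out, between -5.00 and -4.75, and within the slide that holds all 3 d 9 arrays and 1 d 2 array the d 9 mean minus that d 2 array was -3.66. The serum pool gave 9.48, close to the d 9 whey, but its dimmer array was normalized together with whey, so the levels are not directly comparable.

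Over all features, 16849 probes were tested and 261 passed limma at an adjusted p under 0.05 in the d 9 contrast, 141 (0.837% of those tested) higher and 120 (0.712%) lower on d 9. All 3 d 9 values lay above all 6 others in 888 probes (5.27%) and below them in 414 (2.46%). Both criteria together gave 93 d 9 peaks (0.552%) and 85 d 9 troughs (0.504%). The other 83 called probes had d 9 values that overlapped another day or lay between the days. Peaks were small, with a median contrast of 0.82 and a range of 0.48 to 2.15. Troughs were larger, with a median of -1.50 and a range of -0.55 to -4.85. The median over all tested probes was 0.09. Of the troughs, 48 lay over 2-fold below each other day, whereas 8 of the peaks lay over 2-fold above each. The 16 mitochondrial troughs described below are among the 48. Several of the 8 peaks, such as BE107375 at 2.15 and Kbtbd3, were not well above background on any d 2 array. Their sizes rest on dim values and are not measured folds. A gene symbol was carried by 60 of the peaks and 50 of the troughs, for 56 and 47 genes. In all, 62 of the peaks and 60 of the troughs were well above background on all 9 arrays. With the rat as a block, 44 peaks and 82 troughs were called, of which 35 and 59 were among the 93 and 85. Values are relative to the bulk of each array, and scaling to the spike-in probes instead raised the median of all probes to 1.24 and gave 1101 higher and 10 lower calls.

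The number of calls depended on single arrays. Without d 2 rat 1 the peaks numbered 35 and the troughs 44, without d 2 rat 2 they numbered 9 and 12, and without d 2 rat 3 they numbered 87 and 72. Without d 9 rat 1 they numbered 59 and 46, without d 9 rat 2 they numbered 1 and 1, and without d 9 rat 3, the brightest array, 3 and 5. Without d 16 rat 1 they numbered 3 and 11, without d 16 rat 2 they numbered 5 and 16, and without d 16 rat 3 they numbered 0 and 1. The sizes moved far less than the calls. Without d 9 rat 3 the contrasts of the peaks were, at the median, 0.951 of their value and those of the troughs 1.00 of it. All 93 and all 85 still had an unadjusted limma p under 0.05. The peaks and troughs were chosen with that array included, so these sizes and unadjusted p values are no independent check. After adjustment, Tob1 among the peaks and Tf, Podxl and TC585443 among the troughs were still called without that array. Over the 9 left-out arrays, Tf was the only peak or trough called each time, Podxl was called 7 times and Wfdc2, Crabp2, Car2, Asb16, KIAA0319l and Apob48r 6 times, while 28 peaks and 26 troughs lost the call each time.

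**Figure D1:**
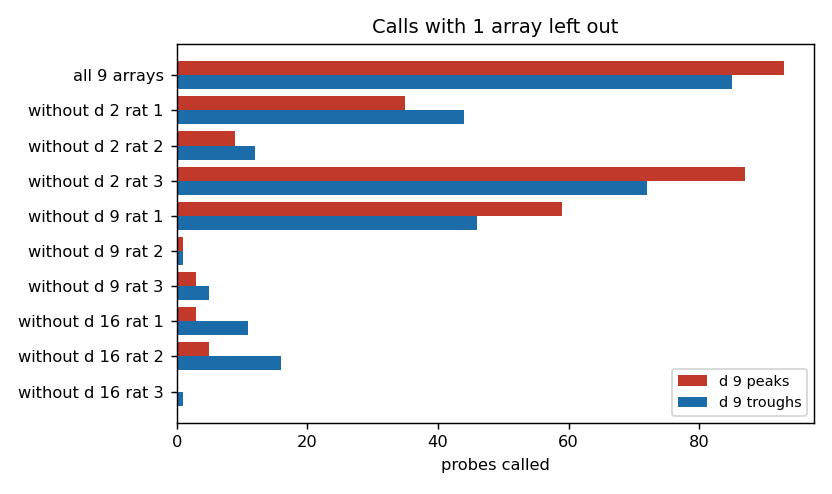
Number of d 9 peaks (red) and d 9 troughs (blue) called by limma (x axis, probes) with all 9 arrays and with each array left out in turn (y axis). The counts fall from 93 and 85 to 0 and 1 without d 16 rat 3, and stay near the full count only without d 2 rat 3.

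Slide and day were partly joined. The d 9 arrays shared a slide with d 2 rat 3, the other d 2 arrays had a slide of their own, and all d 16 arrays lay with the serum pool on another slide that was scanned on a later day, so for d 16 the day of lactation cannot be told apart from the slide and the scan. Within the shared slide, the d 9 mean minus d 2 rat 3 had a median of 1.00 over the peaks and -1.68 over the troughs, against 0.05 over all tested probes. The choice of peaks and troughs fixed the sign of these medians. The 75th percentile of the processed signal was 12.5 to 28 on d 2, 21.2 to 83.2 on d 9 and 21.5 to 40.6 on d 16, with d 9 rat 3 highest. The part of this brightness in the results was not tested.

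**Figure D2:**
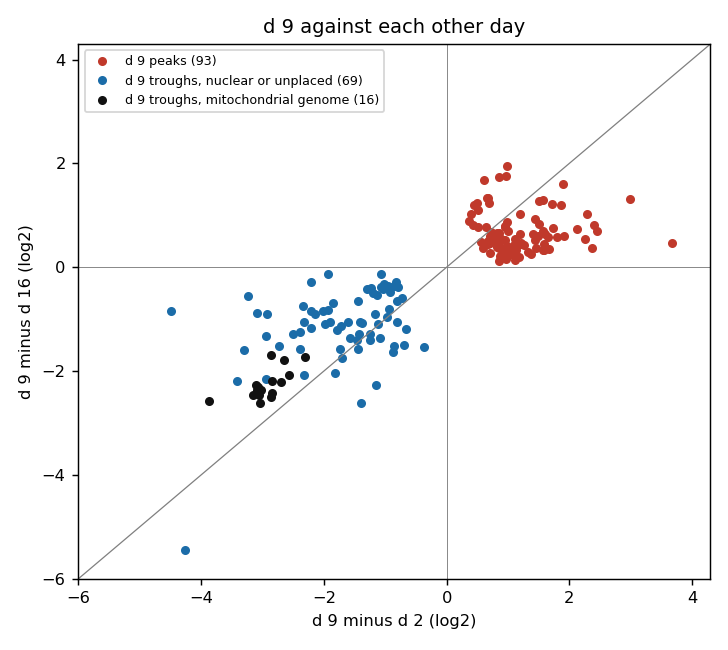
Each of the 93 d 9 peaks and 85 d 9 troughs placed by its d 9 minus d 2 difference (x axis) and its d 9 minus d 16 difference (y axis), both in log2 units, with the 16 troughs of the mitochondrial genome in black and the line of equal differences in grey. Tf stands alone at the lower left, and most points lie farther from d 2 than from d 16.

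Most peaks and troughs lay farther from colostrum than from late milk, as did most probes. The d 9 mean was farther from d 2 than from d 16 in 78 of the 93 peaks and in 70 of the 85 troughs, against 10290 of all tested probes (61.1%). Of the peaks, 86 were called higher than d 2 and 18 higher than d 16, where 11.2% and 0.861% of all tested probes were. Of the troughs, 82 were called lower than d 2 and 23 lower than d 16, where 6.46% and 0.558% of all tested probes were. The choice of peaks and troughs used these arrays, so nothing is read from the counts. Tested against each day on its own, 12 probes (0.0712% of those tested) were higher on d 9 than on both days and 20 (0.119%) were lower than on both. Of these, 11 and 20 were among the peaks and troughs. The exception was Thumpd2, just outside the threshold of the contrast (0.50, adjusted p = 0.0525).

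The mitochondrial genome supplied 16 of the 85 troughs, where 0.504% of all tested probes were troughs, and none of the peaks. The array places 47 probes on it, 35 of which were tested, and this group was singled out after the values were seen, so its counts are a description. For 7 of its genes the array files name the subunit, with 16 tested probes between them. All 16 had every d 9 value below every d 2 and d 16 value, where 2.46% of all tested probes did. Of the 16, 12 were called, as troughs. The median contrast of the 16 was -2.65, with a range of -3.22 to -1.65, where the median of all tested probes was 0.09. Scaled to the spike-in probes it was -1.54, where that of all probes was 1.24. All 16 were called lower than d 2, where 6.46% of all tested probes were. None was called against d 16, at a lowest limma adjusted p of 0.0565. The other 4 troughs have no subunit name in the files, and 2 of those, on the minus strand, were not well above background on any d 9 array.

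The fall was seen in each rat. The median of the 16 subunit probes was 8.0, 8.39 and 9.04 on d 2 in rats 1, 2 and 3. It was 5.85, 4.68 and 5.92 on d 9. It was 7.52, 7.26 and 8.87 on d 16. Each d 9 median lay below every median of the other days. This follows from the order of values already given for the 16 probes and adds no support. Rat 3 was highest on each day. The serum pool, at 10.90, was above all whey arrays. It was normalized together with them, although its 75th percentile of processed signal was 4.11, against 12.5 to 83.2 on the whey arrays. Levels in serum and whey are therefore not directly comparable.

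COX2, with 6 probes that in part overlap and so share sequence, was a trough at all 6, between -2.81 and -2.45. Its brightest probe, printed above, gave 11.73, 12.27 and 12.90 on d 2, 9.62, 8.30 and 9.51 on d 9 and 11.47, 10.87 and 12.46 on d 16. Rat 2 had the lowest d 9 value here and in the other subunits printed. The contrast was -2.81 ± 0.45 (SE, n = 9, limma adjusted p = 0.0351), a 6.99-fold difference. COX1 moved most of the group, from 9.04, 9.53 and 10.19 on d 2 to 5.97, 4.85 and 6.33 on d 9, with 8.08, 7.39 and 9.37 on d 16. Its contrast was -3.22 ± 0.50 (SE, n = 9, limma adjusted p = 0.0341), a 9.33-fold difference. COX3 (-2.67, adjusted p = 0.0387) and ATP6 (-2.63, adjusted p = 0.0349) followed at 1 probe each. Of the 4 CYTB probes 2 were troughs, and the printed one had a contrast of -2.83 (adjusted p = 0.0341). ND2, a subunit of complex I, was a trough at 1 of 2 probes (-2.27, adjusted p = 0.0387), whose signal stood clear of background on a single d 9 array, and ND5, another subunit of complex I, did not pass at its single probe (-2.03, adjusted p = 0.0721).

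**Figure D3:**
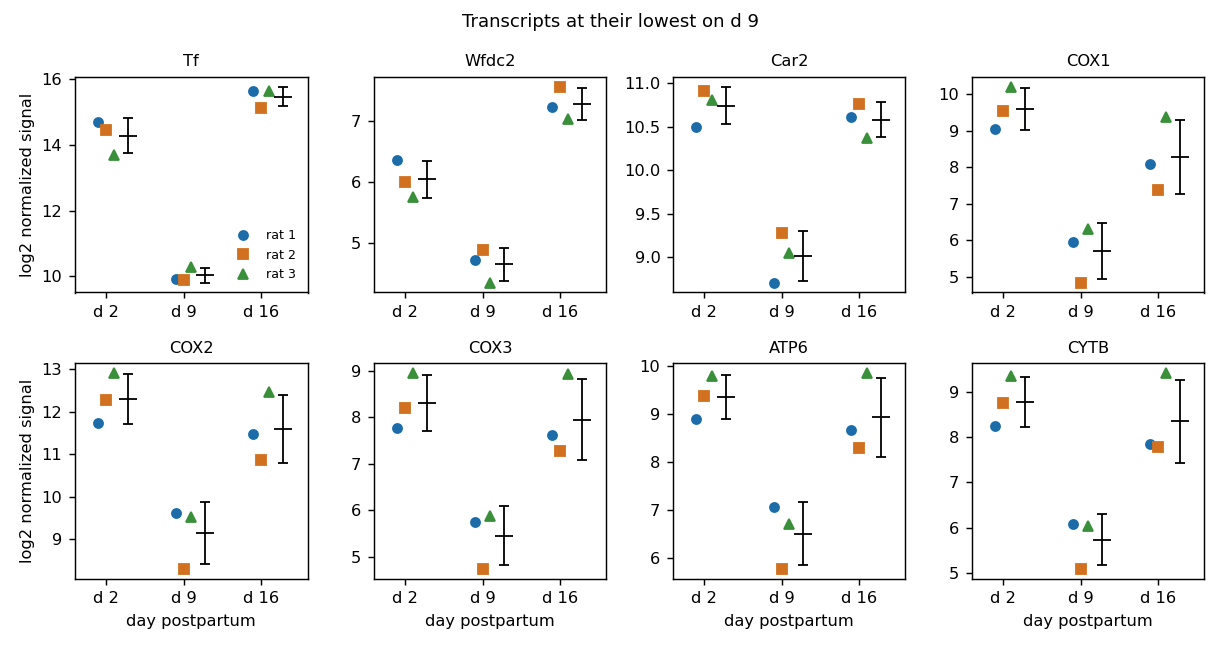
Log2 normalized signal (y axis) on d 2, d 9 and d 16 (x axis) of Tf, Wfdc2, Car2 and the printed probes of 5 mitochondrial subunits, with a symbol for each rat and the mean ± SD of each day in black. In every panel the 3 d 9 values lie below all 6 others. The y axes differ between panels and do not start at 0.

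Probes at the start of the mitochondrial genome, between bases 154 and 1613, are described apart. This stretch is known to hold the genes of the mitochondrial ribosomal RNAs, although the files do not name the probes so. Their median lay between 14.64 and 15.36 on d 2, between 11.77 and 14.34 on d 9 and between 13.39 and 14.25 on d 16, with d 9 rat 3 lowest. None of the 10 tested probes was called and none had all d 9 values below all others, at a median contrast of -0.80. That median rested on d 9 rat 3 and was 0.01 without it. Without that array the median of the subunit probes was -2.81. Under spike-in scaling the median of the early stretch was 0.35, where that of all tested probes was 1.24. The difference between the 2 stretches was not tested.

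The nucleus supplies the other subunits of the same complexes. Of 85 nuclear respiratory chain genes tested, Ndufa7 alone was called, as a peak (0.61, adjusted p = 0.0486, and 0.0681 with the rat as a block). Over all genes 0.833% were called higher and 0.574% were peaks, so nothing is read from this single call. The median contrast of the 85 genes was 0.10, against 0.09 over all 14293 genes with 1 probe each. None of the 85 had every d 9 value below all others, where 363 of all 14293 did.

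**Figure D4:**
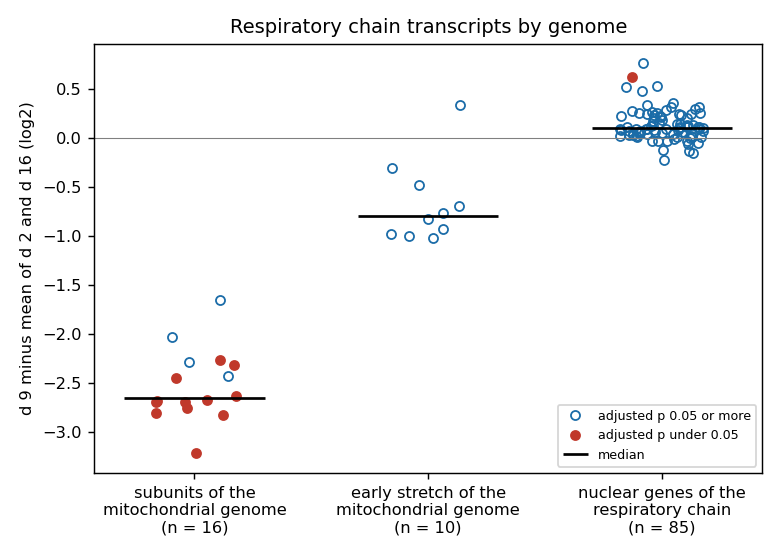
Contrast of d 9 against the mean of d 2 and d 16 (y axis, log2) for 16 probes of named subunits of the mitochondrial genome, 10 probes of its early stretch and 85 nuclear genes of the respiratory chain, with called features filled in red and medians as black lines. The subunits of the mitochondrial genome lie between -3.22 and -1.65, and the nuclear genes between -0.22 and 0.76.

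The mitochondrial calls were close to the threshold. The 16 troughs had adjusted p values between 0.0341 and 0.0486. With the rat as a block all 16 were called. With the slide as a random block all 16 were called too, at a fitted slide correlation of -0.082. All contrast calls rose from 261 to 686 in that fit, which cannot separate d 16 from its slide. Scaled to the spike-in probes 1 was called, and with no filter on dim probes none. Without d 2 rat 1, 3 were called, and without d 2 rat 3, 5. Leaving out any other array left none, at adjusted p between 0.0564 and 0.181. The median of the subunit probes stayed between -2.85 and -2.25 with any array left out.

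Other troughs of large size followed. Wfdc2, a small secreted protein of the whey acidic protein family, gave 6.37, 6.01 and 5.76 on d 2, 4.73, 4.89 and 4.36 on d 9 and 7.23, 7.56 and 7.03 on d 16. The days did not overlap, and d 16 was highest. Its contrast was -2.0 ± 0.19 (SE, n = 9, limma adjusted p = 0.0193), and it was called against d 2 (adjusted p = 0.0075) and d 16 (adjusted p = 0.0057). Car2, a carbonic anhydrase, gave 10.50, 10.91 and 10.81 on d 2, 8.71, 9.28 and 9.05 on d 9 and 10.61, 10.76 and 10.37 on d 16. Its d 2 and d 16 values overlapped, and the differences of d 9 from them were -1.73 and -1.57. Podxl, a sialomucin of cell surfaces, had a contrast of -2.19 (adjusted p = 0.0193) and stood clear of background on a single d 9 array and on all d 2 and d 16 arrays. Mgst2, a glutathione transferase of membranes, gave -1.73 (adjusted p = 0.0278) and was also well above background on 1 d 9 array.

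Crabp2, Sh2d5 and Pdlim2 fell mainly from colostrum. Crabp2, which binds retinoic acid, gave 11.60, 11.99 and 12.20 on d 2, 8.83, 8.72 and 8.56 on d 9 and 9.02, 9.52 and 9.23 on d 16. Its d 9 mean differed by -3.23 from d 2 and by -0.56 from d 16, and the latter did not pass (adjusted p = 0.19). Sh2d5 had a contrast of -2.67 (adjusted p = 0.0239) with a d 16 difference of -0.84 (adjusted p = 0.291). Pdlim2, a cytoskeletal adaptor, gave -1.98 at this probe (adjusted p = 0.0329, and 0.0603 with the rat as a block) and 0.11 at its other probe, so its direction is uncertain. Bhlhe41, a repressor of the circadian clock, gave -1.69 (adjusted p = 0.0461, and 0.0755 with the rat as a block). Its other probe was a trough too but was not well above background on any d 9 array, so its size is not given.

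Further troughs were called against each day. Bik, which promotes cell death, gave 6.74, 6.47 and 6.46 on d 2, 5.33, 5.11 and 5.49 on d 9 and 6.62, 6.99 and 6.52 on d 16. Its d 9 values lay below both other days, which overlapped. Apob48r, a receptor for dietary lipoproteins, was a trough at both of its probes, -1.19 and -1.10. Plac8 was the brightest of these, at 13.07, 13.31 and 13.08 on d 2, 12, 12.13 and 12.41 on d 9 and 13.23, 13.14 and 13.01 on d 16. Dusp18, a protein phosphatase, gave -0.94 and Parvb, an adaptor of integrin adhesions, -1.22, both at adjusted p = 0.0202. Parvb was well above background on 1 d 9 array and 2 d 2 arrays. Fcer2, the low-affinity receptor for IgE, gave -1.46 (adjusted p = 0.0315) and was well above background on 2 d 9 arrays. Tnfsf12, a cytokine of the tumour necrosis factor family, was called against d 2 but not d 16 and gave -1.90 (adjusted p = 0.0315), and it was well above background on 1 d 9 array. Scaled to the spike-in probes, the contrasts of Apob48r, Plac8 and Dusp18 turned to 0.0088, 0.25 and 0.18.

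Of the remaining named troughs, none was called against d 16 except Anxa1. Cfb, the protease of the alternative complement pathway, gave 7.61, 7.05 and 7.16 on d 2, 5.35, 4.86 and 5.00 on d 9 and 5.89, 5.90 and 5.96 on d 16, a contrast of -1.52 (adjusted p = 0.0202). Anxa1, a membrane-binding protein that damps inflammation, gave -1.71 (adjusted p = 0.0498), and its other probe gave -1.65 (adjusted p = 0.0509). Ctsd, a lysosomal protease, gave -1.43 (adjusted p = 0.0351, and 0.0563 with the rat as a block). Chmp4c, a subunit of the membrane-cutting ESCRT-III complex, gave -1.43 (adjusted p = 0.0349), and Dmkn, a secreted epidermal protein, -1.50 (adjusted p = 0.0349, and 0.0693 with the rat as a block).

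Serum was read on its own array. Of the 85 trough probes, 61 (71.8%) also stood well above background in the serum pool, against 17 of the 93 peaks (18.3%) and 5380 of all tested probes (31.9%). A single pooled array carries this count, and the part of blood RNA in the troughs was not tested. In whey, fewer source cells or vesicles of a kind and less of a transcript in each cannot be told apart.

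Among the peaks, Arhgap9 was called against each day and at both of its probes. It gave 9.65, 9.73 and 10.34 on d 2, 10.66, 10.76 and 11.24 on d 9 and 8.82, 8.89 and 9.13 on d 16. The days did not overlap, d 16 was lowest, and the contrast was 1.46 ± 0.20 (SE, n = 9, limma adjusted p = 0.0286). Ptges gave 5.77, 6.20 and 5.86 on d 2, 6.49, 6.53 and 6.65 on d 9 and 4.74, 5.04 and 4.87 on d 16. Its order of days was that of Arhgap9, with a contrast of 1.14 (adjusted p = 0.0202). Gcsh, the lipoyl carrier of the glycine cleavage system in mitochondria, was a peak at all 3 of its probes, between 0.57 and 0.71, although the largest lost its call with the rat as a block (adjusted p = 0.0573). Nfyb, a subunit of the factor that binds CCAAT boxes, gave 6.95, 6.96 and 6.77 on d 2, 7.55, 7.72 and 7.61 on d 9 and 6.91, 7.03 and 6.89 on d 16, a rise of 0.71 (adjusted p = 0.0286) between 2 days that overlapped. Osbpl1a, which binds oxysterols, rose at both probes (0.97 and 0.87, the former at adjusted p = 0.039, and 0.0603 with the rat as a block). Kbtbd3 was called too (adjusted p = 0.0202), but was well above background on 1 of the 9 arrays.

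**Figure D5:**
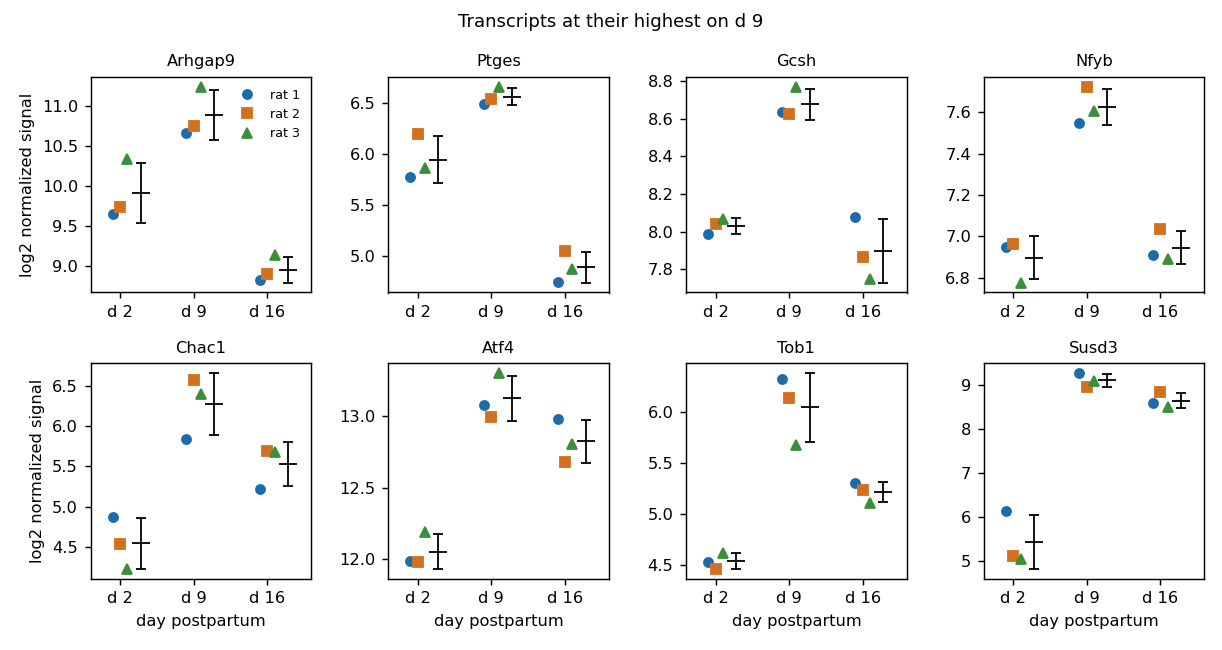
Log2 normalized signal (y axis) on d 2, d 9 and d 16 (x axis) of 8 named peaks, with a symbol for each rat and the mean ± SD of each day in black. All d 9 values lie above all others. In Arhgap9 and Ptges d 16 is lowest, and in Chac1, Atf4, Tob1 and Susd3 d 2 is lowest. The y axes differ between panels and do not start at 0.

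Other peaks were called against d 2 and not against d 16. Susd3, a membrane protein known to respond to oestrogen in breast cells, gave 6.13, 5.12 and 5.04 on d 2, 9.27, 8.96 and 9.09 on d 9 and 8.59, 8.85 and 8.51 on d 16. The contrast was 2.07 (adjusted p = 0.0202), and the difference from d 16 was 0.46 (adjusted p = 0.427). Tob1, which restrains cell division, gave 4.53, 4.46 and 4.62 on d 2, 6.32, 6.14 and 5.67 on d 9 and 5.30, 5.24 and 5.10 on d 16, a contrast of 1.17 (adjusted p = 0.0275). Rerg, a Ras-like protein induced by oestrogen, gave 1.02, Itprid2 1.01, Slc27a3, of the fatty acid transporter family, 1.04 and Tonsl, which acts in repair at replication forks, 1.44. Each had an adjusted p between 0.0202 and 0.0382 in the contrast. Ccdc65, a protein of cilia (1.12, adjusted p = 0.0408), Cytip, of leukocyte adhesion (1.02, adjusted p = 0.04), and Cda, which deaminates cytidine (1.30, adjusted p = 0.0486), lost their calls with the rat as a block, at adjusted p of 0.0611, 0.0664 and 0.079. Cda differed from the others here in that it was called against d 16 (adjusted p = 0.0345) and not against d 2 (adjusted p = 0.072).

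Dim peaks can be given only as bounds where a day was not well above background. Plppr4 and Asb16 were well above background on all 3 d 9 arrays, on 2 d 16 arrays and on no d 2 array. Set against the lowest level measurable on d 2, they were at least 1.75-fold and at least 1.29-fold higher on d 9 than the mean of the other days. The bounds were not tested. The contrasts without the bound had limma adjusted p of 0.0202 and 0.0193. For Asb16 every d 9 value lay under the lowest level measurable on d 2 rat 1, 4.11. Caap1, also not well above background on d 2, was at least 1.56-fold higher, and its contrast without the bound had a limma adjusted p of 0.0433. Prom2, a membrane protein of epithelial protrusions, was well above background on 1 d 2 array and gave 1.18 (adjusted p = 0.0437). Caap1 and Prom2 lost their calls with the rat as a block, at adjusted p of 0.0707 and 0.0715.

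Of 23 genes of endoplasmic reticulum folding and the unfolded protein response, 3 were called, all higher on d 9, where 0.833% of all genes were, and 2 were peaks, where 0.574% were. The median of the 23 was 0.01, against 0.09 over all genes. The 3 genes were Atf4, a transcription factor made when amino acids run short or protein folding fails, and Chac1 and Trib3, both known targets of it. Chac1, an enzyme that breaks down glutathione, gave 4.87, 4.53 and 4.23 on d 2, 5.85, 6.58 and 6.41 on d 9 and 5.22, 5.69 and 5.68 on d 16. Its contrast was 1.24 (adjusted p = 0.0433), and its other probe gave 1.50. Atf4 gave 11.99, 11.98 and 12.19 on d 2, 13.07, 12.99 and 13.30 on d 9 and 12.98, 12.68 and 12.81 on d 16, a contrast of 0.68 (adjusted p = 0.0431). Trib3, a pseudokinase, gave 1.01 (adjusted p = 0.033), and it was no peak because 1 of its d 9 values, 8.94, lay below its highest d 16 value, 8.99. With the rat as a block Chac1 and Atf4 were at adjusted p of 0.0704 and 0.057. None of the 3 was called against d 16.

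The promoter of Chac1 is shown because Atf4 is known to act through sites of the kind TGATGCAA. The 250 bases before its start are given 5′ to 3′ on the plus strand at chr3:126795881-126796130 of GRCr8, from RefSeq, with the only match to that motif on either strand in capitals, from position -167 counted from the start. The match reads on the opposite strand. In windows from 250 bases before to 50 after the start, the motif stood in 266 of 33469 rat promoters of the same source (0.795%). Among the d 9 peaks with such a window it stood in 2 of 46, Chac1 and Polr2m, and among the troughs in 0 of 38. A match is a description and no evidence of binding.
Chac1 promoter: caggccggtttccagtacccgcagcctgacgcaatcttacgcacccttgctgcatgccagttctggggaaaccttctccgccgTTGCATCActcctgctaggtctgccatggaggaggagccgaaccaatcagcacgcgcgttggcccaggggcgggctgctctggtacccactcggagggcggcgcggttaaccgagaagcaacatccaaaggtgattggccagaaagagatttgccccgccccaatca

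Milk proteins other than Tf were not called. Of 18 milk protein genes tested, Tf alone was called, where 0.742% of all genes were called lower and 0.833% higher. The median contrast of the 18 was -0.08. Csn1s1 and Csn1s2a, the casein transcripts with the highest signal, gave -0.41 and -0.33, and Csn2 and Csn3 gave 0.07 and 0.06, none of which passed. Spike-in scaling turned the first pair to 0.63 and 0.54, and scaling to the 75th percentile turned the second pair to -0.23 and -0.053. Csn1s1 read 17.91 on all d 2 arrays and on d 9 rats 1 and 2, because quantile normalization gives the same value to the same rank, and 16.88 on d 9 rat 3. Csn1s2b went from 9.24, 9.30 and 9.65 on d 2 to 13.55, 13.78 and 13.24 on d 9 and 15.86, 15.70 and 16.21 on d 16. Its d 9 values lay between the other days, and its contrast of 0.86 did not pass (adjusted p = 0.0576). Of 16 iron handling genes, Tf was again the only one called.

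Of 12 complement genes, 3 were called, all lower on d 9, where 0.742% of all genes were, at a median of -0.54 over the list against 0.09 over all genes. Cfb was the trough described above. C2, a protease of the classical pathway, gave -1.83 (adjusted p = 0.0329), and Clu, a secreted chaperone that also restrains complement, gave -1.69 (adjusted p = 0.0315). These were not troughs, because d 9 and d 16 overlapped and the difference lay against d 2. Clu gave 7.63, 7.35 and 6.75 on d 2, 4.02, 4.20 and 3.50 on d 9 and 4.09, 4.15 and 3.61 on d 16.

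In lactose synthesis 2 of 13 genes were called, both lower, where 0.742% of all genes were. Hk1, which phosphorylates glucose, was a trough (-1.38, adjusted p = 0.0329), and Pgm2, a phosphoglucomutase by its name, gave -0.72 (adjusted p = 0.0351, and 0.0605 with the rat as a block) and a d 9 difference from d 16 of -0.18. Hk1 was also the only call among 22 glycolysis genes. In fatty acid synthesis and uptake 1 of 31 was called. This was Olah, the thioesterase that releases medium-chain fatty acids in the mammary gland, a trough at 12.42, 12.83 and 12.37 on d 2, 11.32, 10.68 and 11.30 on d 9 and 11.88, 11.81 and 11.56 on d 16 (-1.05, adjusted p = 0.0437, and 0.0762 with the rat as a block). Scaled to the spike-in probes, Olah and Pgm2 turned to 0.18 and 0.47. None of 19 cholesterol synthesis genes and none of 9 milk fat globule membrane genes was called.

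A call in the contrast did not always mean a peak or trough. Egf, the epidermal growth factor, gave 3.22, 2.77 and 3.46 on d 2, 5.45, 5.37 and 5.41 on d 9 and 5.43, 5.22 and 5.40 on d 16. Egf was well above background on 1 d 2 array, so the size of its contrast is uncertain. It was called (1.16, adjusted p = 0.028), but the difference of d 9 from d 16 was 0.06. Dusp6, a phosphatase that limits ERK signalling, and Krt19, a keratin of simple epithelia, were the mirror, at -1.23 (adjusted p = 0.0292) and -1.60 (adjusted p = 0.0437, and 0.0764 with the rat as a block), with d 9 differences from d 16 of 0.08 and -0.45. Irs1, which relays insulin signals, was called (adjusted p = 0.0202), but it was not well above background on d 2, so no fold is given, and the difference of d 9 from d 16 was -0.09.

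Cell division genes had intermediate values on d 9. Of 33 mitosis and cell cycle genes 31 had a positive contrast, at a median of 0.59, and none was called and none was a peak. Their median d 9 minus d 2 was -1.11 and their median d 9 minus d 16 was 2.19, and 7 of the 33 were well above background on all 9 arrays. Ccnb1, a cyclin that starts mitosis, gave 6.72, 6.66 and 6.18 on d 2 and 5.68, 5.87 and 5.50 on d 9 and was not well above background on d 16. Its contrast was at least 2.02-fold, a bound that was not tested. The contrast without the bound had a limma adjusted p of 0.0917. Of 34 DNA replication genes none was called at the probe that stood for it, at a median of -0.27, although another probe of Mcm4, a subunit of the replicative helicase, was (-1.33, adjusted p = 0.0351).

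Counted with 1 probe a gene, none was called among 74 ribosomal protein, 36 proteasome, 39 secretory transport, 32 exosome marker, 25 chemokine and interleukin, 29 interferon response, 23 antigen presentation, 23 nutrient transport, 27 heat shock, 20 pattern recognition, 6 acute phase, 7 antibody transfer, 18 arginine and urea, 15 miRNA processing, 38 spliceosome and 60 translation factor genes. Over all genes 0.833% were called higher and 0.742% lower, so nothing about a list is read from no call or a single call. The medians of these lists ran from -0.68 for acute phase genes to 0.43 for chemokines and interleukins. Probes that did not stand for their gene were called for Anxa1, an exosome marker described above, and Atp2b2, a calcium pump among the nutrient transport genes (1.22, adjusted p = 0.0329). Of 36 antioxidant genes Mgst2 alone was called, of 26 cathepsin and lysosome genes Ctsd alone, and of 20 prolactin and STAT5 signalling genes Irs1 alone. Dusp6 was the only call among 24 immediate early genes, Krt19 among 25 tight junction and epithelial genes and Egf among 19 growth factor and hormone genes.

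Markers of other cell types had no called member on any list, where 0.833% of all genes were called higher and 0.742% lower. The summed signal of 14 of 15 markers of secretory mammary epithelium, the cells that make milk, was 19.98 to 20.05 on d 2, 19.97 to 20.30 on d 9 and 20.17 to 20.42 on d 16, in log2 units. That of 13 of 22 macrophage markers was 9.90 to 10.06, 10.11 to 11.18 and 11.85 to 12.14, with d 9 between the other days. That of 9 of 20 neutrophil markers was 7.39 to 7.69, 7.07 to 8.29 and 7.99 to 9.68, and that of 5 of 22 lymphocyte markers 6.31 to 7.13, 6.70 to 7.65 and 7.67 to 8.04. Here d 9 overlapped d 2. That of 11 of 12 myoepithelial markers was 11.55 to 12.19, 10.48 to 12.68 and 12.75 to 13.13, with d 9 rat 3 lowest and the other d 9 arrays above all of d 2. All 11 had a negative contrast, at a median of -0.55. None of 21 hepatocyte markers, which include the liver proteins of plasma, passed the filter on low signals in whey. The part of any cell type in the peaks and troughs was not tested.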

How the data were processed

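Whey RNA of 3 rats on d 2, d 9 and d 16 and 1 serum pool were measured on 10 single-colour Agilent rat arrays. The deposited values are spot intensities that the authors obtained with Agilent Feature Extraction 9.5.3.1, per the labels and file headers, with probe positions on rn4. The series table of the authors holds log2 values under 10 column names that match no sample label, and these were not used. The study's methods name quantile normalization, signals above 20 and the Tukey-Kramer test. Here log2 processed signals of non-control spots, without spots marked as outliers, were quantile normalized over the 10 arrays and then averaged per probe. Of 41012 probes, 16849 with a signal above 20 and well above background on at least 1 whey array were tested. R 4.3.3 and limma 3.58.1 (lmFit, eBayes) gave the contrast of d 9 with the mean of d 2 and d 16, and d 9 against each day, with Benjamini-Hochberg adjustment at 0.05 over all tested probes. The number of arrays limits the precision. The rat numbers come from the sample titles and mark the same animals. Residuals of the same rat on different days correlated at -0.02 to 0.22 (mean 0.10) over 9 pairs, those of different rats at -0.25 to 0.16 (mean -0.05) over 18 pairs. The fit has no rat block, and the block is an alternative. Symbols were updated through RefSeq for 16815 of 20503 probes with a RefSeq accession (82.0%). Lists were counted with 1 probe a gene. Named genes were the 12 largest peaks and troughs well above background on all 9 arrays, the 4 largest dimmer ones of each direction, genes called against each day (10 at most per direction), up to 4 called members of each list (otherwise up to 2 uncalled ones), Tf and the caseins, and of these the uncalled members are mostly given as counts. C2, Clu and the others outside the peaks come from the lists. The mitochondrial probes, the Chac1 promoter, Mcm4, Atp2b2, KIAA0319l and TC585443 were chosen after their values were seen. The fits were tested on simulated data. The comparison, its lists and its tests were chosen with earlier results of these data known.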

Additional observations from a re-analysis of the deposited data

How the results depend on the processing

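Counts are given as called contrasts, peaks, troughs, peaks called against each day and troughs called against each day, where the reported values are 261, 93, 85, 12 and 20. Scaled to the spike-in probes they were 1111, 384, 4, 36 and 1, with the median of all probes at 1.24. With normexp background correction they were 964, 369, 189, 116 and 67. With a minimum signal of 100 they were 804, 305, 140, 72 and 58. For probes well above background on all 9 arrays they were 766, 268, 169, 64 and 62. With the slide as a random block, at a fitted slide correlation of -0.082, they were 686, 252, 169, 58 and 63. With the brightest array, d 9 rat 3, left out of filter, normalization and fit they were 19, 6, 9, 3 and 6. With no filter on dim probes the contrast fell to 146 calls, the troughs to 36 and the troughs called against each day to 13, with 41012 probes tested. Leaving out each array in turn gave 1 to 265, 0 to 87, 1 to 72, 1 to 18 and 4 to 25. The sizes of the reported peaks and troughs moved little, but these were chosen with all arrays included. The Tukey-Kramer test, which the study's legends name for measures other than the arrays, called 0 peaks and 0 troughs against each day after adjustment. Unadjusted it called 295 and 130 of the 16849 probes. Scaling to the 75th percentile and quantile normalization over the whey arrays alone kept all of these counts within 1.5 times. Of the reported contrasts, peaks and troughs, 194, 63 and 66 were among those called at the 75th percentile.

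With the rat as a block, which pairs the days by animal, 198 contrasts, 44 peaks, 82 troughs, 6 peaks called against each day and 17 troughs called against each day were found. Of these, 134, 35, 59, 3 and 11 were among the reported ones. The block took the call from 17 of the 59 named probes, as given beside those described, and changed no other call of a named probe.

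Scaled to the spike-in probes, 7 contrasts changed sign, to 0.0088 for Apob48r, 0.18 for Dusp18, 0.25 for Plac8, 0.18 for Olah, 0.47 for Pgm2, 0.63 for Csn1s1 and 0.54 for Csn1s2a. At the 75th percentile Csn2 was -0.23 and Csn3 -0.053. With each array left out in turn, Csn2 ran from -0.062 (without d 9 rat 1) to 0.25 and Csn3 from -0.11 (without d 9 rat 1) to 0.29 (without d 9 rat 3). Alternatives for the mitochondrial probes were added after the data were seen. Their subunit median was -1.54 with spike-in scaling and -1.54 with normexp. The contrast of Tf was called in all 19 alternatives that refit it, from -5.02 to -3.62. The Tukey-Kramer test against each day is not among these, and after adjustment it called 0 troughs, so Tf did not pass it. The causes of these changes were not tested. Dim probes limit the precision, since 58.2% of the tested probes were well above background on all 9 arrays.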
